A study of Mus musculus with 16 samples.

Results

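The major urinary protein (Mup) genes of the mouse mammary fat pad were followed in 16 RNA-Seq libraries, 4 from each of 4 groups of mice. Members were chosen by their symbol and level: rows whose symbol was Mup followed by a number and whose normalized count, a read count divided by the size factor of its library, was 10 or more in at least 4 of the 16 libraries were taken. All 10 rows with such a symbol met this rule, out of 23179 genes in the table: Mup2, Mup3, Mup7, Mup9, Mup10, Mup11, Mup14, Mup16, Mup17 and Mup18. Mup10 reached 10 in all 16 libraries, Mup9 and Mup3 in 14, Mup11 and Mup16 in 11, Mup18 in 10, Mup2 and Mup7 in 8, Mup14 in 7 and Mup17, the member nearest to the limit, in 5.

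The mice were wild-type C57BL/6N females, given in the methods as C57BL/6NCrl and 8 weeks old on arrival. CON-LFD mice ate the low-fat control diet D12450J throughout. The other 3 groups were first made obese (diet-induced obesity, DIO) on D12492, a diet with 60% of its energy as fat. DIO-HFD mice then stayed on that diet, DIO-LFD mice were moved to the low-fat diet, and DIO-VSG mice had vertical sleeve gastrectomy, removal of part of the stomach, and then ate the low-fat diet. All mice without the gastrectomy had a sham operation, and all 4 groups received E0771 mammary cancer cells in the 4th mammary fat pad 22 weeks after randomization. The RNA came from the tumor-free 9th fat pad on the opposite side, so no group was free of tumor, and obesity and the high-fat diet cannot be told apart in DIO-HFD.

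MUPs are small secreted lipocalins, beta-barrel proteins that carry hydrophobic ligands. They are made mainly in the liver, pass into the urine and release volatile pheromones from scent marks. Their transcription in the liver depends on the pulsatile release of growth hormone acting through STAT5, and on androgens, thyroid hormone and glucocorticoids. Mup transcripts are also known from exocrine glands, among them the lachrymal, salivary and mammary glands. The family falls into a central array of near-identical genes and a smaller set of more divergent peripheral genes, of which Mup3 is one.

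In GENCODE M21 on GRCm38, all 10 members are protein-coding genes on the minus strand of chromosome 4, between position 60066469, where Mup7 begins, and position 62087342, where Mup3 ends. That stretch of 2021 kb belongs to a cluster with 22 annotated protein-coding Mup genes and 27 Mup pseudogenes. The 12 protein-coding genes without a row were not analysed here. Mup10, the highest member, lies at chr4:60578260-60582199, Mup9 at chr4:60418046-60421952, Mup11 at chr4:60658466-60662411 and Mup16 at chr4:61515592-61519531. Mup3 stands apart at chr4:62083476-62087342.

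How far the copies can be told apart by a read was measured on their reference transcripts, cut into windows of 76 bases, the length of 1 sequenced end. Every window of Mup2 was also present in a transcript of another Mup gene, as were 94.5% of those of Mup14, 89.2% of Mup9, 87.5% of Mup18, 85.8% of Mup10, 85.6% of Mup7 and Mup11, 84.3% of Mup16 and 68.3% of Mup17. Mup3 was the exception, with 6.6% of its windows in another Mup gene and 0% in another member. The methods name salmon, which divides such reads between copies, whereas the submitters' processing notes name HTSeq, which by default leaves out reads that align to several places. The split between the 9 central members is therefore uncertain whichever was used, and the sum over the 10 members is given beside the single genes. The sum is not free of this either. Of the Mup10 windows, 76.9% occur in another member and 85.8% in any other Mup gene. Some reads could thus go to genes outside the sum, and reads that HTSeq left out would be missing from it. Mup3 is the member whose value depends least on that split.

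The RefSeq promoters of the members are close copies as well. Windows from 250 bases before to 50 bases after the annotated start were at hand for 9 members (GRCm38.p6; none for Mup16), and their 36 pairwise local alignments were 76.2% to 98.9% identical, the lowest ones all with Mup3. The 150 bases before the start are shown for the 2 members that passed the test below (Mup9 and Mup11), the highest member (Mup10) and the divergent one (Mup3), 5′ to 3′ on the minus strand, with TATATAA in capitals. They lie at chr4:60582156-60582305 (Mup10), chr4:60421953-60422102 (Mup9), chr4:60662396-60662545 (Mup11) and chr4:62087318-62087467 (Mup3).
Mup10: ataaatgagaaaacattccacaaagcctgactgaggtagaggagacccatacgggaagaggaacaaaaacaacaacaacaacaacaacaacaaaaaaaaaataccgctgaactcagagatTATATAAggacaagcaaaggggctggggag
Mup9: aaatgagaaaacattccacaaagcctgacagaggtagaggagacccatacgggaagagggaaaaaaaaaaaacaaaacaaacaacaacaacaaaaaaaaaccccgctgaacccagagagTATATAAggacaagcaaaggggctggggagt
Mup11: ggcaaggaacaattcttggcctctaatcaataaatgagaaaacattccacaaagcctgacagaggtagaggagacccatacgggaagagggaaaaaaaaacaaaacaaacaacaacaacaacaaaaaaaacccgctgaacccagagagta
Mup3: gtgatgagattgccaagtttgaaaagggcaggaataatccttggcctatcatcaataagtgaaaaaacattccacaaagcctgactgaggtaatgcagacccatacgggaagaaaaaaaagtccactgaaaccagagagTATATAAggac
All 4 stretches hold the same run of 22 bases, aaaacattccacaaagcctgac. TATATAA, searched on both strands after the sequences had been seen, occurred in 8 of the 9 member windows and in 3.22% of 32544 RefSeq windows of the same length. It began 30 bases before the start in Mup10, 31 in Mup9 and 11 in Mup3, while in Mup11 it began 2 bases before the start and ran past the end of the stretch shown. The annotated starts of the copies are thus offset against each other. TTCNNNGAA, the letters that STAT proteins recognise, occurred in 0 of the 9 windows and in 8.33% of all windows, which says only that these letters are not in this stretch. AGAACA, part of the element of the glucocorticoid and androgen receptors, occurred in 1 of 9 (18.9% of all windows) and CCAAT in 5 of 9 (37.4%). Matches of different motifs did not overlap in the member windows, and a match is no measurement of binding.

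The 16 libraries held 46907377 to 57610899 reads. Adipocyte markers, all 12 of which were listed, summed to between 578680.7 and 2081462.8 normalized counts and mammary epithelial markers, 15 of 16 listed, to between 34628.4 and 145091.3, so both cell types of the labelled tissue were present in every library. DIO-LFD replicate 1 exceeded the other 15 libraries in 6 of 12 liver markers. It held 294 reads of Apoa1, 245 of Ahsg, 126 of Fga and 41 of Cps1, where the others held at most 7, 15, 1 and 2, and Apoa2 and Apoh were likewise highest there. The other 6 markers, among them Alb with 3112 reads (480 to 3810 elsewhere), Fgg with 430 (47 to 1575) and Serpina1b with 287 (17 to 790), lay within the range of the other libraries. DIO-LFD replicate 4 stood apart in skeletal muscle markers, which summed to 131381.0 normalized counts there and to at most 30298.9 elsewhere. The main values that rest on DIO-LFD replicate 1 are given with and without it, and the ratios of family sums also without DIO-LFD replicate 4.

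DIO-HFD fat pads held the least Mup RNA and CON-LFD fat pads the most. The 10 members together had 6245.2, 4443.1, 2588.5 and 7816.7 normalized counts in the 4 CON-LFD libraries, against 39.79, 422.7, 69.85 and 137.7 in the 4 DIO-HFD libraries. In DIO-LFD they had 300.3, 6387.7, 1844.9 and 5139.5, and in DIO-VSG 384.8, 1195.3, 1691.4 and 693.8. The lowest CON-LFD library thus exceeded every DIO-HFD and every DIO-VSG library, DIO-LFD spread from the DIO-HFD range to the CON-LFD range, and 1 DIO-VSG library lay below the highest DIO-HFD library. The group means ± SD (n = 4) were 5273.4 ± 2259.1 in CON-LFD, 3418.1 ± 2827.1 in DIO-LFD (4457.4 ± 2347.0 with n = 3 without replicate 1), 991.3 ± 573.9 in DIO-VSG and 167.5 ± 175.0 in DIO-HFD. Of neighbours in this order, CON-LFD and DIO-LFD, DIO-LFD and DIO-VSG, and DIO-VSG and DIO-HFD each overlapped. As CPM of the library, the sum ran from 52.36 to 135.6 in CON-LFD and from 0.8654 to 8.144 in DIO-HFD. In tissue RNA of this kind, fewer cells that make a transcript and less of it per cell cannot be told apart.

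**Figure D1:**
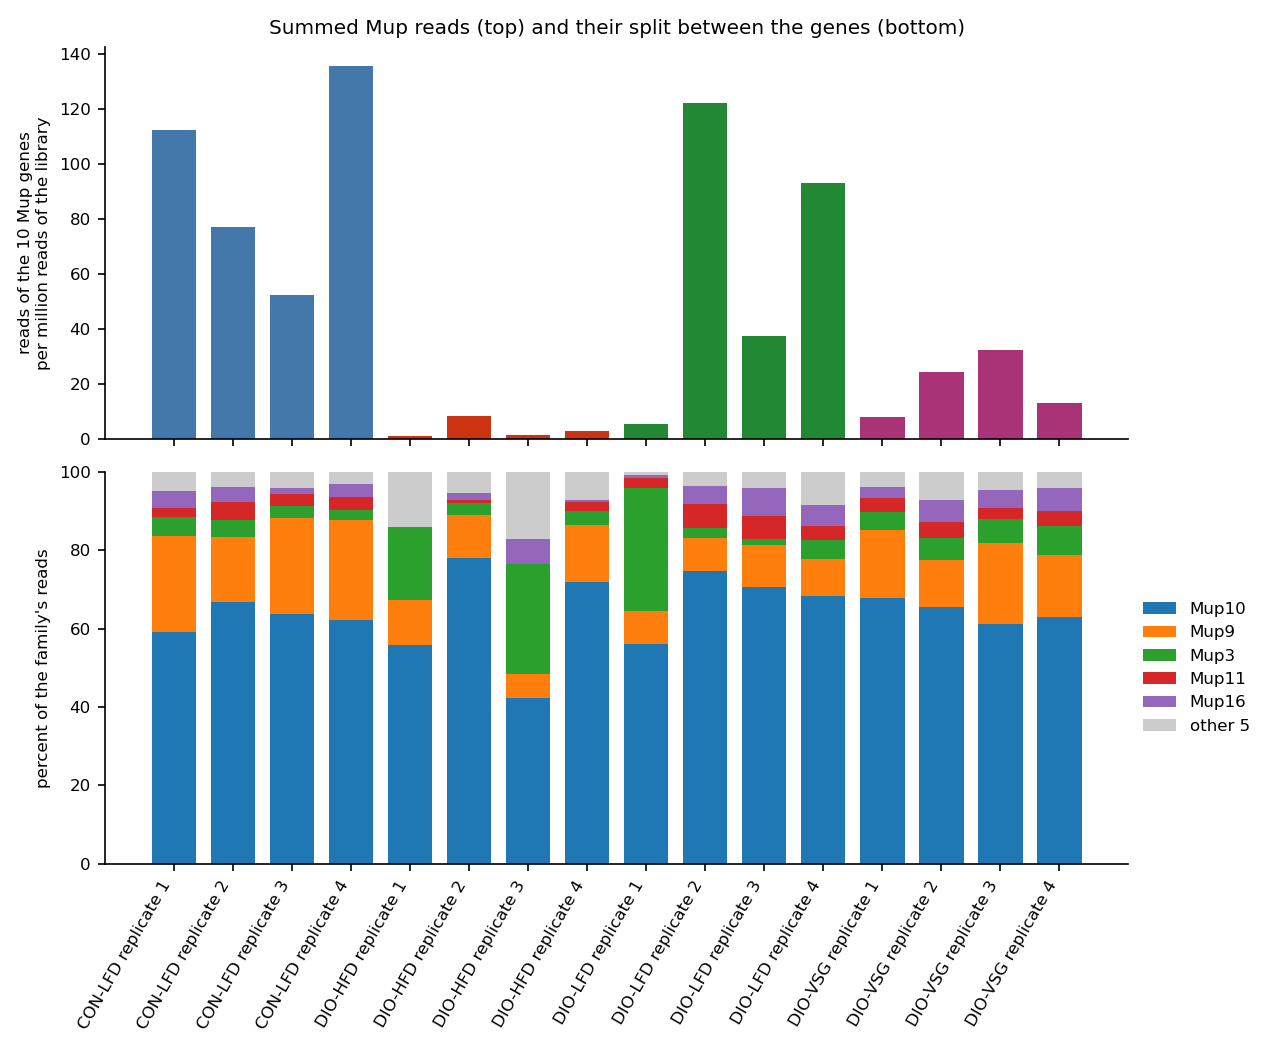
Reads of the 10 Mup genes as CPM of each library (top, bars coloured by group) and the percent of those reads at each gene (bottom, stacked to 100). The 4 DIO-HFD libraries, DIO-LFD replicate 1 and DIO-VSG replicate 1 lie below 10 CPM, and Mup10 takes the largest share in every library.

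The ratio of means was 31.48 for CON-LFD over DIO-HFD. It was 20.41 for DIO-LFD over DIO-HFD (26.61 without DIO-LFD replicate 1 and 17 without DIO-LFD replicate 4) and 5.918 for DIO-VSG over DIO-HFD. DIO-HFD replicate 2 held most of the Mup reads of its group, and without it these 3 ratios were 64, 41.5 and 12. CON-LFD exceeded DIO-VSG 5.319-fold and DIO-LFD 1.543-fold (1.183-fold without DIO-LFD replicate 1 and 1.85-fold without DIO-LFD replicate 4), and DIO-LFD exceeded DIO-VSG 3.448-fold (4.496-fold and 2.87-fold without these libraries). These are ratios of sums over members of unequal level, in which Mup10 and Mup9 weigh most.

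DIO-HFD relative to CON-LFD asks what persistent obesity on the high-fat diet changed relative to lean controls. Mup9 fell by 6.38 on the log2 scale (SE 0.93, 95% CI -8.37 to -4.39, adjusted P = 0.0454), and Mup11 fell by 6.26 (SE 0.95, adjusted P = 0.0454), in limma's test on log2(normalized count + 1) with Benjamini-Hochberg adjustment over 21218 genes. These 2 of 10 members stood beside a background of 0.0377% of all genes called (8 genes), 0.0141% of them lower (3 genes). All 10 members had a fitted difference below 0, as did 47.3% of all genes, and all 10 had an unadjusted P below 0.05, which 7.66% of all genes reached in this direction. At that limit 1626 genes were lower and 1109 higher, whereas with scaling by library total 830 were lower and 2696 higher. For 9 members, all but Mup17, every DIO-HFD library lay below every CON-LFD library, which held for 3% of all genes. The median fitted difference was -4.52 over the members and 0.02 over all genes tested. The rule that chose the members read these same values, and Mup2, Mup7, Mup11, Mup14, Mup16 and Mup17 reached 10 normalized counts in no DIO-HFD library, so they passed it through other groups and the counts over members are a description. The central members are also close copies that share reads. Counts of members are therefore not counts of separate observations, here and in the comparisons below.

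Mup9 had 1521, 743.2, 636.5 and 1988 normalized counts in the CON-LFD libraries, against 4.627, 46.48, 4.366 and 19.67 in those of DIO-HFD, a 65.1-fold difference of the means (127.9-fold without DIO-HFD replicate 2). Mup11 had 137.9, 209.9, 82.1 and 258.2 in CON-LFD, whereas in DIO-HFD it had 0 reads in replicates 1 and 3, 3 reads in replicate 2 and 4 in replicate 4. The CON-LFD libraries were far above the DIO-HFD libraries for both genes, and for Mup11 the DIO-HFD level rests on 7 reads in all. Both calls were close to the threshold. They remained without CON-LFD replicate 3, DIO-LFD replicate 1 or DIO-LFD replicate 2, and both were lost when any 1 of the other 13 libraries was left out. With single libraries left out, the adjusted P of Mup9 ran from 0.0064 to 0.194 and that of Mup11 from 0.0038 to 0.206. Over the other 12 settings it ran from 0.00106 to 0.144 for Mup9, called in 9 of them, and from 0.00146 to 0.242 for Mup11, called in 6. The direction was the same throughout. With limma's library weights all 10 members were called, beside 19.8% of all genes.

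Mup10 had 3699, 2963, 1648 and 4862 normalized counts in the CON-LFD libraries, against 22.21, 329.8, 29.47 and 99.14 in those of DIO-HFD. The groups did not overlap and the means differed 27.4-fold (65.5-fold without DIO-HFD replicate 2), but the fitted difference of -5.46 (SE 0.98) missed the threshold (adjusted P = 0.0676). Without DIO-LFD replicate 1 it was called (adjusted P = 0.032), as it was without CON-LFD replicate 3. Mup3, the member least affected by shared sequence, had 306.8, 186.6, 78.41 and 209 in CON-LFD and 7.403, 13.28, 19.65 and 4.916 in DIO-HFD, a 17.3-fold difference of the means. Its fitted difference was -4.00 (SE 0.67, adjusted P = 0.0602), with the smallest error of the 10 members, and it was called without CON-LFD replicate 3 (adjusted P = 0.0234). Mup16 had 280.3, 173.9, 35.05 and 253.2 in CON-LFD and at most 6.64 in DIO-HFD (difference -5.63, SE 1.26, adjusted P = 0.167), and it too was called without DIO-LFD replicate 1 (adjusted P = 0.0359).

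The other 5 members were low genes, with adjusted P values of 0.191 to 0.289. Their CON-LFD means were 76.46 ± 33.85 for Mup18, 41.73 ± 21.43 for Mup7, 37.39 ± 17.93 for Mup2, 34.7 ± 22.72 for Mup14 and 15.13 ± 12.35 for Mup17 (SD, n = 4). Mup14 had 0 reads in all 4 DIO-HFD libraries and was at least 11.7-fold lower there, counting 3 reads per library as the limit of a count of 0. Mup17 was the member whose groups overlapped, with 2.767 in the lowest CON-LFD library and 3.32 in the highest DIO-HFD library.

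**Figure D2:**
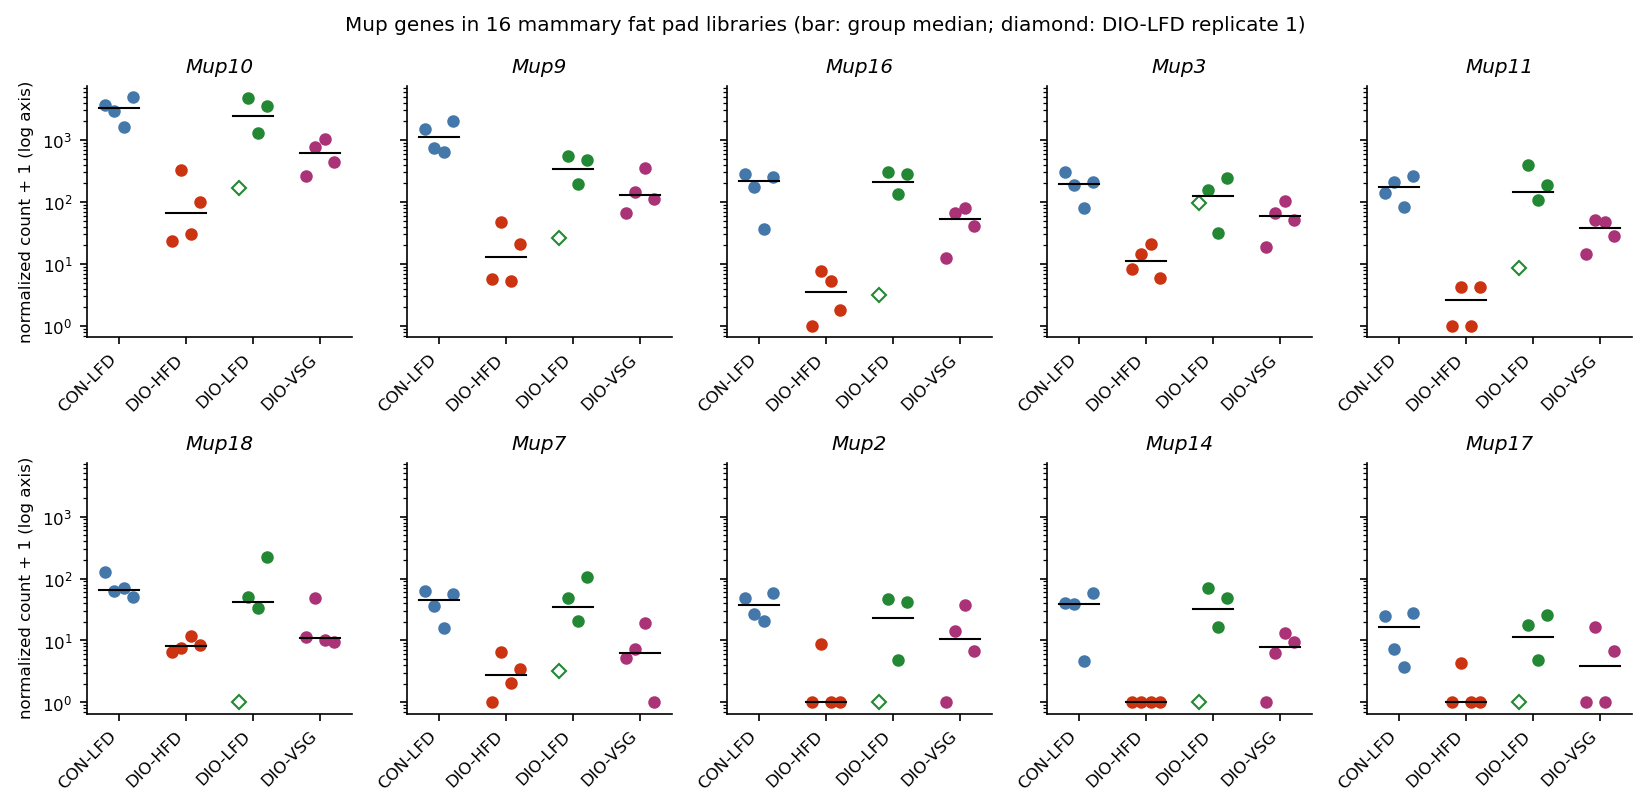
Normalized count + 1 of each Mup gene in each library (log axis; one point per library, black bar for the group median, open diamond for DIO-LFD replicate 1). For 9 of the 10 genes, all but Mup17, the 4 DIO-HFD points lie below the 4 CON-LFD points.

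DIO-VSG relative to DIO-HFD asks what surgical weight loss changed, although the surgery and the move to the low-fat diet cannot be told apart in this comparison. All 10 members were higher on average in DIO-VSG, as were 52.5% of all genes, but limma called 0 of the 10 members and 0% of all genes. At an unadjusted P below 0.05, 5 members were higher (Mup3, Mup9, Mup10, Mup11 and Mup16), beside 5.05% of all genes. Mup11 had 13.48, 50.37, 46.19 and 27.64 normalized counts in DIO-VSG, all above the highest DIO-HFD library (difference 3.93, SE 0.95, adjusted P = 0.243). Mup9 had 66.38, 143.9, 352 and 109.6 (difference 3.41, SE 0.93, adjusted P = 0.246), again all above DIO-HFD. Mup16 had 11.41, 65.66, 79.03 and 40.03 (difference 3.79, SE 1.26, adjusted P = 0.284). It was the last of the 3 members without overlap, a pattern that 2.37% of all genes showed in this direction. Mup10 had 261.4, 782.5, 1034 and 437.4, of which the first lay below the highest DIO-HFD library (difference 2.99, SE 0.98, adjusted P = 0.276). The members without overlap numbered 6 without DIO-VSG replicate 1 (3.48% of all genes) and 5 without DIO-HFD replicate 3 (4.68%). With limma's library weights, 7 members were called beside 17.6% of all genes, and voom on the recovered reads called 0.

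DIO-LFD relative to DIO-HFD asks the same of weight loss by diet. All 10 members were higher on average, as were 51.6% of all genes, and limma called 0 of the 10 and 0% of all genes. At an unadjusted P below 0.05, 7 members were higher, beside 5.37% of all genes. Mup10 had 168.1, 4771, 1304 and 3508 normalized counts in DIO-LFD, and its fitted difference was 4.32 (SE 0.98, adjusted P = 0.296). Mup11 had 7.643, 392.8, 104.8 and 185.9 (difference 5.45, SE 0.95, adjusted P = 0.296), and Mup9 had 25.11, 542.6, 195.4 and 481.2 (difference 3.87, SE 0.93, adjusted P = 0.317). Mup16 had 2.184, 300.5, 135.3 and 276.8 (difference 4.72, SE 1.26, adjusted P = 0.37). In each of these the first value, replicate 1, was the lowest by far. Mup11 and Mup3 were the 2 members without overlap (3.01% of all genes). Without replicate 1 the members without overlap numbered 9 (5.41% of all genes) and all 10 had an unadjusted P below 0.05 (5.55%). Without DIO-HFD replicate 2 those without overlap numbered 4 (4.97%). Mup11 was called without DIO-LFD replicate 1, as the only one of 21218 genes (difference 6.58, adjusted P = 0.0052), while there Mup10 differed by 5.33 (adjusted P = 0.086), Mup9 by 4.83 (adjusted P = 0.0897) and Mup16 by 6.26 (adjusted P = 0.0662). Leaving out the lowest DIO-LFD value by itself raises these differences. Mup11 was called in 1 of 16 fits with a single library left out. Voom called 0 members with all libraries, and library weights called 9 beside 8.54% of all genes.

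In DIO-LFD replicate 1, the library highest in 6 of the 12 liver markers, the Mup reads were split differently. Of its 275 Mup reads, 31.6% were Mup3, against 1.65% to 4.81% in the other 3 DIO-LFD libraries. Mup3 had 94.99 normalized counts there, within the 30.49 to 247.2 of the other 3, whereas Mup2, Mup14, Mup17 and Mup18 had 0 reads. In DIO-HFD, Mup3 made up 28.1% of the 64 Mup reads of replicate 3 and 18.6% of the 43 of replicate 1, against 3.14% and 3.57% in replicates 2 and 4. Whether liver RNA contributed to the Mup reads of DIO-LFD replicate 1 was not tested.

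**Figure D3:**
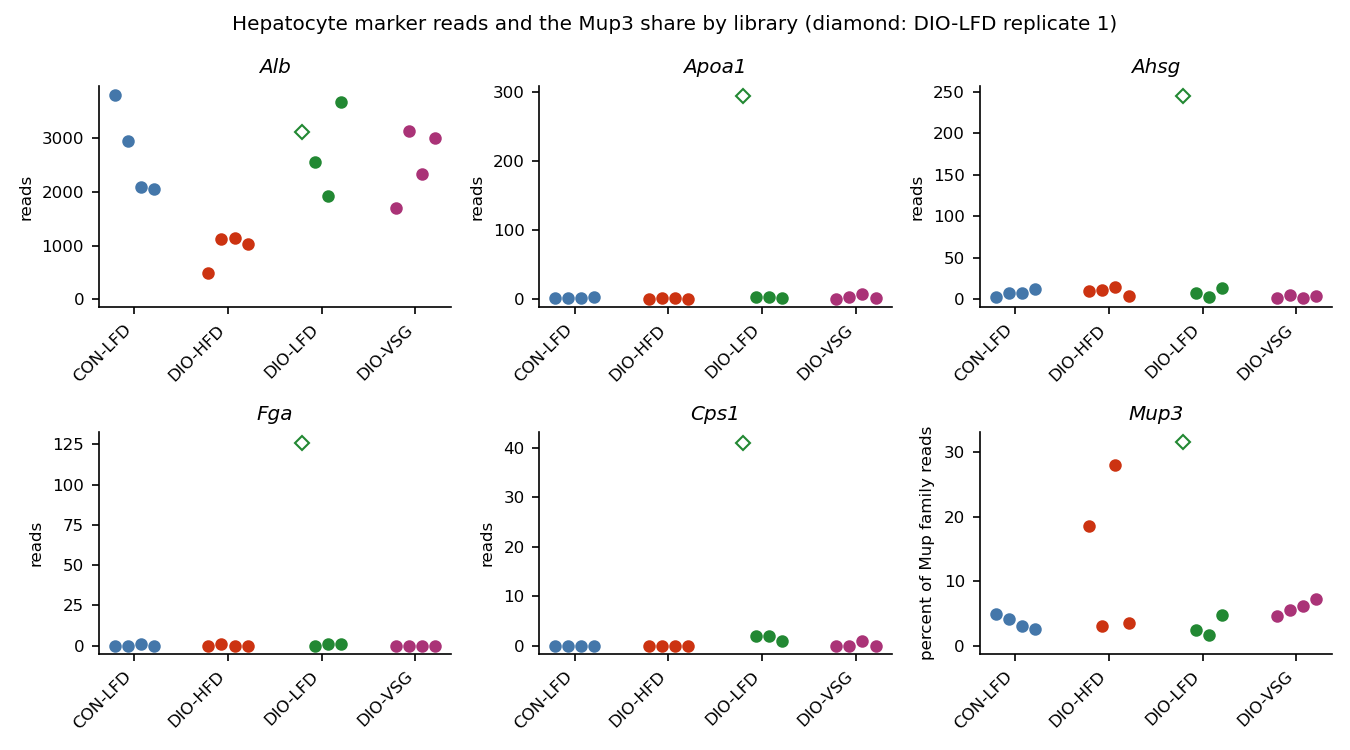
Reads of 5 hepatocyte markers and the percent of Mup reads at Mup3 in each library (one point per library; open diamond for DIO-LFD replicate 1). Apoa1, Ahsg, Fga and Cps1 are high in that library alone, while Alb is lowest in the 4 DIO-HFD libraries.

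DIO-VSG and DIO-LFD, the 2 routes of weight loss, were not told apart by any member. All 10 were lower on average in DIO-VSG (52.7% of all genes), 0 were called by limma or voom (0% of all genes), 0 had an unadjusted P below 0.05 (5.41% of all genes in this direction) and 0 were without overlap (5.83%). The fitted differences ran from -2.21 for Mup7 (95% CI -4.45 to 0.03, adjusted P = 0.51) to -0.34 for Mup2 (95% CI -3.07 to 2.39, adjusted P = 0.912), intervals that leave room for large differences in either direction for most members. Mup10 differed by -1.33 (95% CI -3.43 to 0.77), and by -2.34 without DIO-LFD replicate 1 (adjusted P = 0.583), where Mup16 differed by -2.47 and not by -0.94. Without that library, 5 members had no overlap (8.85% of all genes) and 6 had an unadjusted P below 0.05 (4.72%), with 0 called (0%).

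Relative to CON-LFD, DIO-VSG was lower on average in all 10 members (52.2% of all genes) and limma called 0 of them (0% of all genes), while 5 had an unadjusted P below 0.05 (7.55% of all genes). In 4 members, Mup9, Mup10, Mup11 and Mup18, every DIO-VSG library lay below every CON-LFD library, beside 4.43% of all genes. That number was 8 without CON-LFD replicate 3, where the share of all genes rose to 15.9%, and 7 without DIO-VSG replicate 3 (6.27%). Mup9 differed by -2.97 (SE 0.93, adjusted P = 0.268) and Mup10 by -2.47 (SE 0.98, adjusted P = 0.268). Library weights called 6 members beside 19.9% of all genes, and voom called 0. In DIO-LFD relative to CON-LFD the fitted differences of all 10 members were below 0 (46.9% of all genes), with a median of -0.86, although the mean normalized counts of Mup7 and Mup11 were slightly higher in DIO-LFD. Here 0 were called by limma, by voom or with library weights (0.00471% of all genes by limma and 0.25% with library weights), and 1 had an unadjusted P below 0.05 (3.03% of all genes). That member was Mup9, which was also the one member without overlap (1.81%), at a difference of -2.52 (SE 0.93, adjusted P = 0.654). Without DIO-LFD replicate 1 it differed by -1.56 (adjusted P = 0.899), 0 members had an unadjusted P below 0.05 (2.88% of all genes), and the fitted differences of 5 members were above 0. Mup10 differed by -1.14, and by -0.13 without that library. All 6 comparisons draw on the same 4 groups, so those with a group in common are not independent.

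**Figure D4:**
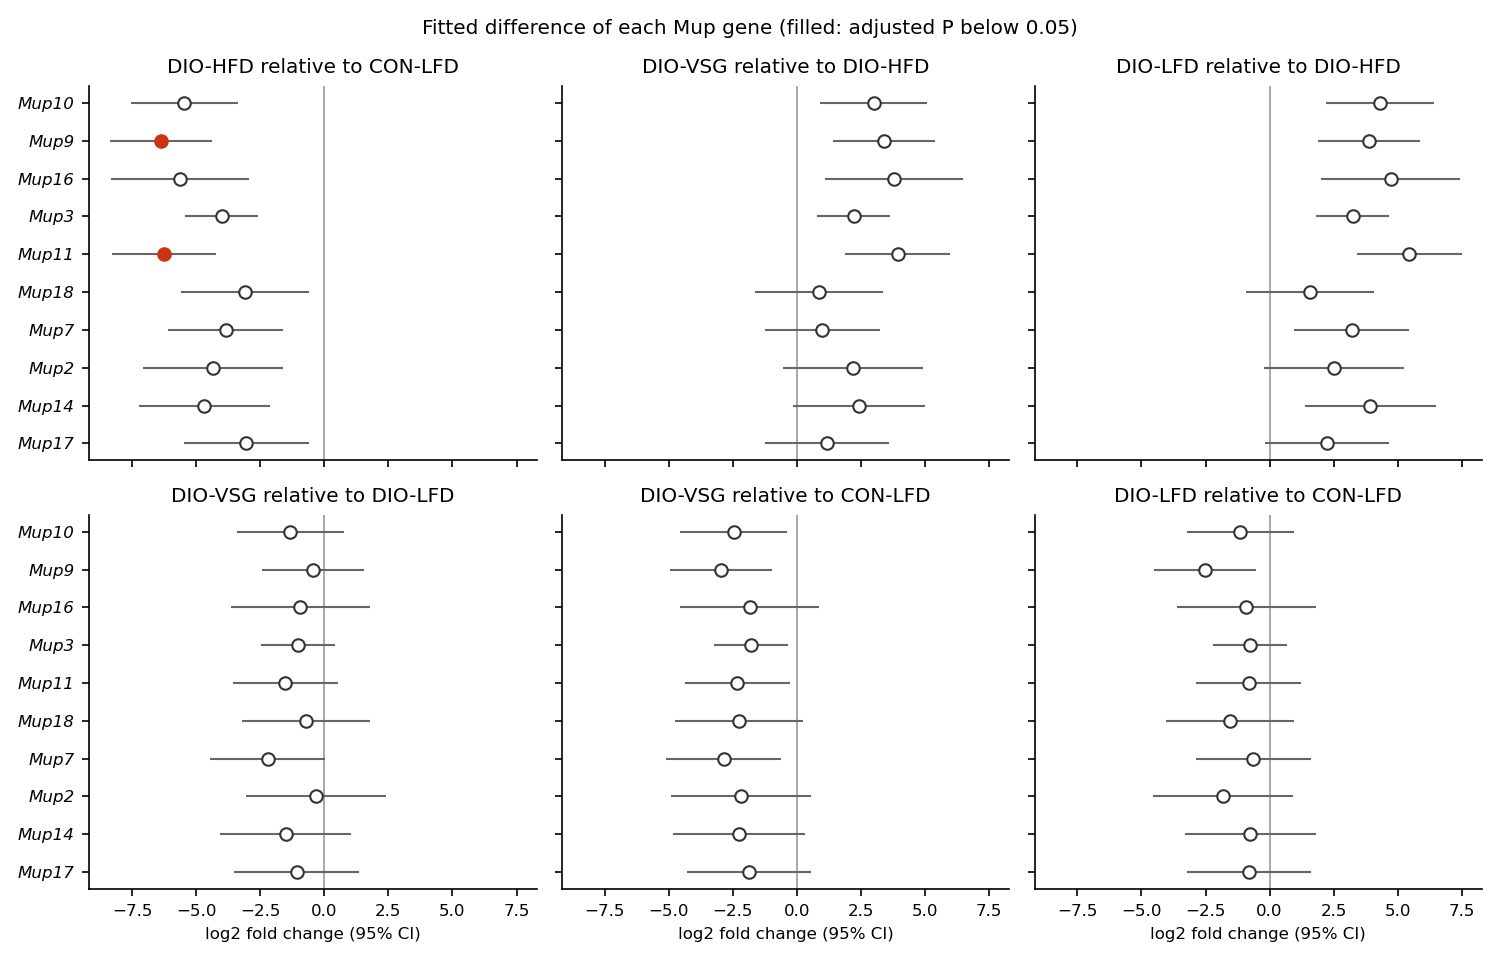
Fitted log2 fold change of each Mup gene in the 6 comparisons (points, with 95% confidence intervals; filled where the adjusted P was below 0.05). Mup9 and Mup11 in DIO-HFD relative to CON-LFD are the 2 filled points, and all 10 members lie on the same side of 0 in each comparison.

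Levels of different members were compared per kb of their reference transcript, as group means of normalized counts. In CON-LFD, Mup10 came first at 3552.4 per kb and Mup9 second at 1344.3, followed by Mup16 at 200.2, Mup3 at 198.4 and Mup11 at 185. Mup18 had 82.22, Mup7 40.39, Mup2 40.33, Mup14 37.51 and Mup17 16.33. In DIO-HFD Mup3 had 11.49 per kb, Mup16 3.189 and Mup11 1.774. The values of the central members depend on how shared reads were counted, which also bears on their level relative to Mup3.

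**Figure D5:**
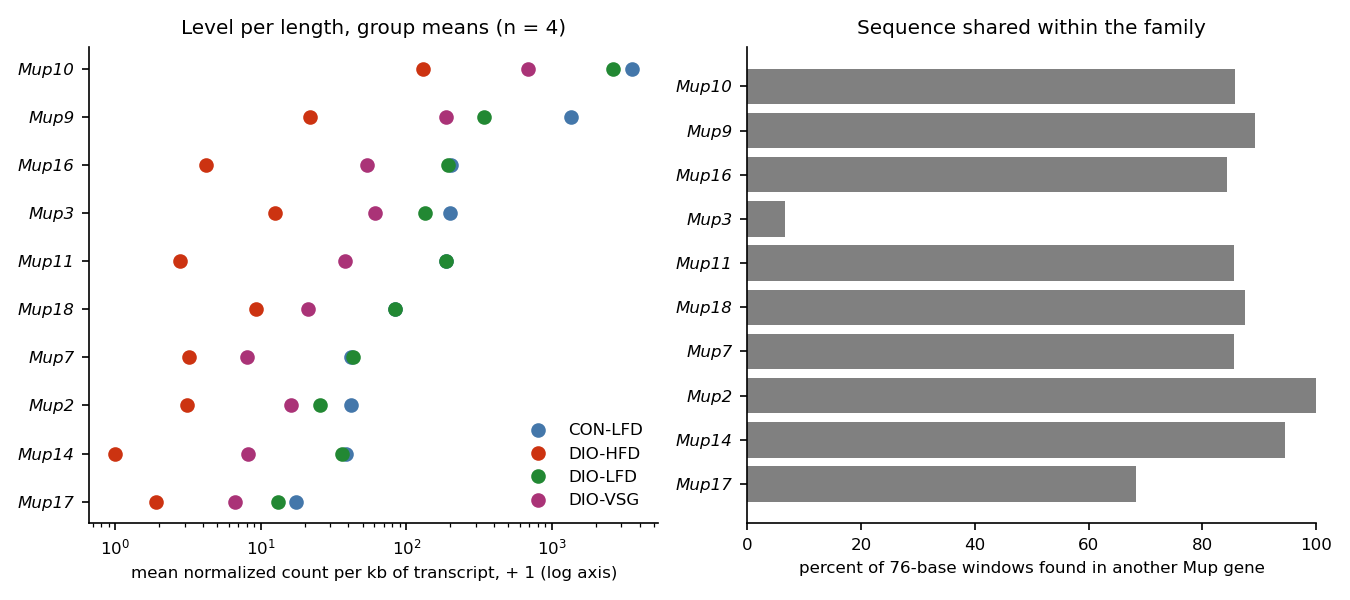
Mean normalized count per kb of transcript, + 1, by group (left, log axis, n = 4 libraries per point) and the percent of 76-base transcript windows that also occur in another Mup gene (right). Mup10 is highest in every group, Mup3 shares 6.6% of its windows, and for Mup11 and Mup18 the DIO-LFD point covers that of CON-LFD.

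Mup10 made up similar shares of the family's reads in all groups, 62.9% ± 3.11 in CON-LFD, 62% ± 16.2 in DIO-HFD, 67.4% ± 8.06 in DIO-LFD and 64.4% ± 2.96 in DIO-VSG (SD, n = 4). The share of Mup9, as counted, was less even. It was 24.4%, 16.7%, 24.6% and 25.4% in the CON-LFD libraries and 11.6%, 11%, 6.25% and 14.3% in DIO-HFD. In DIO-LFD it was 8.36%, 8.49%, 10.6% and 9.36%, and in DIO-VSG 17.3%, 12%, 20.8% and 15.8%. This share depends on how shared reads were counted, as 89.2% of Mup9 windows occur in another Mup gene. The part of that counting in the Mup9 shares was not tested. The DIO-LFD shares lay below every CON-LFD and every DIO-VSG share, and the DIO-HFD shares lay below every CON-LFD share. Each of these 3 differences had P = 0.0286 in a two-sided exact permutation test over libraries, the smallest that 4 against 4 can give, and none passed the correction over the 18 share tests made (adjusted P = 0.171). DIO-LFD replicate 2, with a family sum of 121.9 CPM, had 8.49% and CON-LFD replicate 1, with 112.4 CPM, had 24.4%, a pair picked after the values were seen. Whether the share goes with the family sum was not tested. In DIO-HFD the shares rest on 43 to 382 reads, so that 11.6% of the 43 reads of replicate 1 has a 95% Wilson interval of 5.07% to 24.5%, which covers counting error only.

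The genes whose pattern was most like that of the family were found by Pearson's r over the 16 libraries between each of 21208 other tested genes and the mean centred log2 value of the members. The 10 highest were Pomt1 (r = 0.911), Aldh4a1 (0.906), Cops4 (0.894), 1810021B22Rik (0.891), Gm11773 (0.884), Atp6v1g1 (0.884), Tmem79 (0.882), Adi1 (0.88), Slc25a35 (0.878) and Car11 (0.874). Pomt1 encodes a protein O-mannosyltransferase and Aldh4a1 a mitochondrial enzyme of proline breakdown. All 10 had their lowest group mean in DIO-HFD, from 2127 ± 89.5 against 2492.1 ± 58.08 in CON-LFD for Cops4 to 2.222 ± 0.9906 against 13.38 ± 3.76 for Gm11773 (SD, n = 4). These differences are smaller than those of the Mup genes, and the correlations, picked as the highest of many and partly set by the group means, are a description.

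Genes of the growth hormone and STAT5 axis and others reported to regulate Mup genes were examined as a list of 22, of which 19 were tested. In DIO-HFD relative to CON-LFD, 0 were called and the median difference was -0.11. At an unadjusted P below 0.05, 1 was higher and 2 were lower, beside 1109 and 1626 of 21218 genes. Cux2, a repressor known for its female-specific expression in liver, had the largest difference (2.20, SE 0.49, adjusted P = 0.167), with means of 71.47 ± 13.29 for CON-LFD and 452.7 ± 454.7 for DIO-HFD (normalized counts, SD). The DIO-HFD libraries ran from 162.9 to 1125.2, so the highest of them carries much of that mean. Prlr, the prolactin receptor, differed by -0.93 (SE 0.36, adjusted P = 0.307). Relative to DIO-HFD, Cux2 differed by -1.56 (adjusted P = 0.274) in DIO-VSG and by -1.77 (adjusted P = 0.407) in DIO-LFD, and Prlr by 1.25 (adjusted P = 0.259) and 1.52 (adjusted P = 0.317). Ghr, the growth hormone receptor, had means of 40746.7 ± 10091 in CON-LFD and 54364.8 ± 31469.7 in DIO-HFD. Its fitted difference was 0.24 (95% CI -0.70 to 1.17), an interval that leaves room for a change in either direction. Stat5b, its main transducer in liver, was at 5307 ± 577.4 and 5831.7 ± 499.9.

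Of 20 other lipocalin genes, 9 were tested, and 0 were called in any of the 3 comparisons with DIO-HFD. In DIO-HFD relative to CON-LFD their median difference was -0.99, with 3 lower at an unadjusted P below 0.05 (7.66% of all genes). Orm1, which encodes an acute phase lipocalin, differed by -1.41 (SE 0.84, adjusted P = 0.504) and Rbp4, the retinol carrier of plasma, by -0.99 (SE 0.39, adjusted P = 0.307).

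Markers of other cell types moved with the Mup sum in part. The 12 liver markers, 8 of them tested, summed to 2583.9 to 5161.8 normalized counts in CON-LFD, against 1476.8 to 1811.6 for DIO-HFD, with 3198.8 to 5508.3 in DIO-LFD and 2652.2 to 3806.4 in DIO-VSG. Alb, albumin, took the largest part of that sum by group mean and differed by -1.62 in DIO-HFD (SE 0.34, adjusted P = 0.139), while the fibrinogen chains Fgb and Fgg differed by -1.80 (adjusted P = 0.595) and -1.63 (adjusted P = 0.484). Serpina1b, an alpha-1-antitrypsin gene, differed by 0.93 (adjusted P = 0.746), and the median of the 8 was -0.45. In the 8 libraries of these 2 groups, Cps1 was at 0 reads throughout and Fga at 0 or 1, whereas Apoa1 had 1 to 4 reads, Apoa2 2 to 14 and Ahsg 3 to 15. The 10 thermogenic adipocyte markers, all tested, summed to 3257.3 to 67222.5 in CON-LFD, 799.5 to 2361.8 in DIO-HFD, 4806.5 to 12050.4 in DIO-LFD and 1708.9 to 45931.7 in DIO-VSG. Ucp1, the uncoupling protein of brown fat, differed by -6.07 in DIO-HFD (SE 2.03, adjusted P = 0.254) and Cidea by -4.15 (SE 1.10, adjusted P = 0.213). Of the 10, 7 were lower at an unadjusted P below 0.05 (7.66% of all genes) with 0 called. Adipocyte sums overlapped between CON-LFD (984002.6 to 1642489.8) and DIO-HFD (578680.7 to 1556473.0), as did mammary epithelial sums (52486.8 to 107696.6 and 34628.4 to 75809.5). Of the 14 epithelial markers tested, 5 were lower in DIO-HFD than in CON-LFD at an unadjusted P below 0.05 (7.66% of all genes, median difference of the markers -0.70). At that limit 7 were higher in DIO-LFD than in DIO-HFD (5.37% of all genes) and 2 in DIO-VSG than in DIO-HFD (5.05%), with 0 called. Cldn7, a tight junction gene, differed by -0.96 in DIO-HFD (adjusted P = 0.271) and Elf5, a factor of luminal cells, by -0.87 (adjusted P = 0.476), while the luminal keratin Krt7 differed by 1.28 in DIO-LFD relative to DIO-HFD (adjusted P = 0.296) and Krt18 by 1.25 (adjusted P = 0.305). Skeletal muscle markers summed to 2223.7 to 30298.9 in CON-LFD and 803.0 to 3157.5 in DIO-HFD, and the B cell, T cell, macrophage and keratinocyte sums of these groups overlapped as well. In DIO-VSG all 7 B cell markers were higher than in CON-LFD at an unadjusted P below 0.05, as were 2169 of 21218 genes, with 0 called. Their sum was 57237.5 to 66871.5 against 272.5 to 63042.1. The part of these cell types in the Mup differences was not tested.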

How the data were processed

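Stranded total RNA libraries were sequenced as 2x76 base pairs of reads. The authors' methods name STAR, salmon, GRCm38 and a Gencode annotation, whereas the submitters' processing notes name mm10, TopHat2 2.0.7, HTSeq 0.5.3p9 and DESeq2, and which of these made the values could not be settled. Although described as normalized counts, the deposited values are log2 values that the authors made by variance stabilization in DESeq2 (lowest value 5.36). The transformation was inverted, which returned whole read numbers (within 0.01) for 100% of values once each library's size factor was undone. 0 columns were without a sample. Groups and replicate numbers came from the sample titles, and columns, each named by 1 animal, were matched by animal number.

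limma-trend (limma 3.58.1, R 4.3.3) was fitted to log2(normalized count + 1) of the 21218 genes with 10 or more normalized counts in at least 4 libraries, with all 16 libraries fitted together and group as the single factor. Each library came from 1 mouse, so P values measure the spread between these mice. Tests were two-sided with Benjamini-Hochberg adjustment over all genes and a threshold of 0.05. Fold changes on this scale understate the change of low genes. The fit was also run on simulated counts with the same spread parameter for every gene, which does not show how the test performs on these mice. Share tests were exact (SciPy 1.17.1). Sequences were compared with Biopython 1.88. The members and gene lists were chosen with earlier results of these data known. In full were described members called in any comparison and the 3 highest, and Mup3, the latter chosen after its values were seen. In the gene lists described in the text, called genes or else the 2 with the largest differences among genes with a mean of at least 100 were named. Ghr, Stat5b, Alb, Serpina1b and the marker reads of DIO-LFD replicate 1 were named after their values were seen. Library totals were 46907377 reads or more. Counting error was not compared with the spread between mice, and it weighs most on members with few reads. The alternatives were pseudocounts of 0.5 and 5, no filter, a filter of 50, the deposited values, scaling by library total, quantile normalization, voom, library weights, fits of 8 libraries, a replicate block, a floor of 3 reads and leaving out each library.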

Additional observations from a re-analysis of the deposited data

Results flagged for a closer look

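In groups of 4, a library was looked at again when its distance to the nearest of the others exceeded Dixon's 95% critical share of the range of its group. Among 56 such checks 5 values met this, where chance gives about 1 in 20. The Mup3 share of the Mup reads was 31.64% in DIO-LFD replicate 1, against 1.653% to 4.81% in the other 3 libraries of its group. The Mup9 share was 16.73% in CON-LFD replicate 2, against 24.35% to 25.43%. Mup18 had 46.77 normalized counts in DIO-VSG replicate 2, against 8.577 to 10.37. Mup2 had 7.747 and Mup17 3.32 normalized counts in DIO-HFD replicate 2, where the other 3 libraries had 0 reads of either gene, so that any read would have met the limit and these 2 values say nothing against chance.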

How the results depend on the processing

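In DIO-HFD relative to CON-LFD, the members called numbered 2 and became 1 with a pseudocount of 5, with the deposited log2 values, with quantile normalization, with a floor of 3 reads and with the replicate block, 0 with voom and with the fit of 8 libraries, 3 with scaling by library total and 10 with library weights. Over all genes this comparison had 8 calls, 0 with voom, 0 with the fit of 8 libraries, 4196 with library weights, 3 with quantile normalization, 1 with the replicate block and 19 with scaling by library total, which moved the median of all genes from 0.02 to 0.16. Library weights called 7, 9 and 6 members in DIO-VSG relative to DIO-HFD, in DIO-LFD relative to DIO-HFD and in DIO-VSG relative to CON-LFD (3739, 1811 and 4226 of all genes), where the other settings without a library left out called 0. Between DIO-VSG and DIO-LFD, 0 members were called although library weights called 184 genes and the fit of 8 libraries 1533. The causes were not tested. Deviations of same-numbered libraries from their group means correlated at r from -0.609 to 0.534, and at 0.021 to 0.173 between DIO-VSG and DIO-LFD. Signs were mixed in each of the other comparisons, and the replicate numbers were not taken as pairs.

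With 1 library left out, the members called ranged from 0 to 4 (DIO-HFD relative to CON-LFD, where calls over all genes reached 128 without CON-LFD replicate 3) and from 0 to 1 (DIO-LFD relative to DIO-HFD). Members without overlap ranged from 3 to 6 (DIO-VSG relative to DIO-HFD; 2.81% to 13.4% of all genes), 2 to 9 (DIO-LFD relative to DIO-HFD; 3.63% to 5.94%), 0 to 5 (DIO-VSG relative to DIO-LFD; 6.81% to 9.17%) and 4 to 8 (DIO-VSG relative to CON-LFD; 5.42% to 15.9%). Signs turned for 3 members between the 2 weight loss groups, whose differences ranged from -1.44 to 0.65 (Mup2), -1.41 to 0.047 (Mup9) and -2.25 to 0.35 (Mup18), and for 5 in DIO-LFD relative to CON-LFD, from -1.35 to 0.33 (Mup7), -1.51 to 0.32 (Mup11), -1.57 to 0.56 (Mup14), -1.58 to 0.63 (Mup16) and -1.43 to 0.13 (Mup17). None of these 8 was called in any setting. The directions of all members in the other 4 comparisons, the ratios of family sums and the differences in Mup9 share, the last chosen after the data were seen, kept their sign. Members with few reads limit what these libraries can show: Mup11, Mup14 and Mup17 had 7, 0 and 3 reads in all of DIO-HFD.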
